A study of Mus musculus with 4 samples.

Results

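The collagen genes of the mouse were read as the probe sets whose annotation gave exactly 1 symbol of the form Col, a number, a, a number, and each gene is represented by its brightest probe set, taken as the mean of the arrays. The rule found 43 genes of the 19938 with a probe set of 1 symbol: 11 encode chains of fibrillar collagens, 6 encode the chains of the type IV collagen of basement membranes, and 26 encode other collagens. The rule used names and mean brightness, and no difference between arrays. Of the 43 genes, 30 reached the median signal of all probe sets with 1 symbol, 5.87 on the log2 scale, on at least 1 array: 10 fibrillar, 3 type IV and 17 others. The other 13 were below that level on every array, and their readings are treated as dim.

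Collagens are mostly extracellular proteins built from 3 chains, with stretches wound into a triple helix in which glycine recurs regularly. Fibrillar collagens are secreted as procollagens, trimmed by proteases, and then assemble into cross-linked fibrils, which is the main product of fibroblasts. Type IV collagen forms the sheet-like network of basement membranes, and the remaining types decorate fibrils, form beaded filaments, anchor basement membranes or span the cell membrane. p63, a relative of p53, is the transcription factor of the basal layer of stratified epithelia, where cells rest on a basement membrane. Etoposide poisons topoisomerase II and so leaves DNA double-strand breaks.

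The cells were mouse embryonic fibroblasts of the C57BL/6 strain background, prepared from embryos at E13.5, transformed with SV40 and lacking both BAX and BAK, effectors of mitochondrial apoptosis. All 4 groups carry the double knockout and the SV40 transformation, and all were transduced with a retrovirus, carrying GFP in the controls and p63 in the others. Each virus was paired with a mock treatment and with 6 h of etoposide, and total RNA was hybridised to 1 array per group. The design crosses virus and treatment, and so gives the etoposide difference within each virus and the p63 difference within each treatment. The labels disagree on the etoposide dose: the treatment protocol gives 10 µg/mL, while the sample characteristics give 10 µg per microlitre. The sources used here do not give the isoform or species of the p63 construct, the promoter that drives it, or whether the cells were 1 clone. There were no replicates, so no difference below has an error or a test. A difference is called higher or lower from 1 on the log2 scale, which is 2-fold. Each count of calls at this threshold stands beside the share of the 10698 genes kept by the same brightness filter that reached the same size. Counts of calls under other settings are given without such a share. The precision of these values is limited by the number of arrays. In RNA from a whole culture, fewer cells with a transcript and less of it per cell cannot be told apart.

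The labels held on the gene that was introduced. Trp63 read 4.87 and 5.59 in mock-treated and etoposide-treated GFP cells, and 8.75 and 9.29 in mock-treated and etoposide-treated p63 cells. Fibroblast markers were only partly present: 9 of 13 passed the filter, Vim and Fn1 were bright on all arrays at 12.13 to 12.83 and 11.66 to 12.42, and Pdgfra, Thy1, Dcn and Lum were below the filter on every array. Markers of stratified epithelium moved with the virus. Their number at or above the filter was 2 and 4 of 11 in GFP cells without and with etoposide and 10 and 10 of 11 in p63 cells, and their log2 summed signal was 8.83, 10.2, 12.8 and 12.9. The summed signal of the fibroblast markers was 13.9, 13.8, 13.4 and 13.6 in the same order. Of the other lists, 2 of 7 simple epithelium, 1 of 8 chondrocyte, 1 of 4 osteoblast, 1 of 4 haematopoietic and 1 of 4 skeletal muscle markers with a probe set passed, and 0 of 6 endothelial and 0 of 4 adipocyte markers did. The summed signal of the simple epithelium markers was 8.32, 8.81, 10.5 and 10.7 in the same order. Krt19, at 6.66, 7.48, 10.15 and 10.54, was the only member of that list higher by at least 1 with p63 under both treatments. Acta1 of the skeletal muscle list differed by 1.26 and 0.75 with p63. The part of these markers in the collagen differences was not tested.

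These promoter stretches are shown because they belong to genes on which the results turn and whose promoter sequence was at hand: Col18a1, with the highest p63 difference of the collagens in mock-treated cells, Col1a2, a type I chain that was lower with etoposide, and the head-to-head pair Col4a1 and Col4a2. They are RefSeq sequences of build GRCm38.p6, each window running from 250 bases before to 50 bases after a transcript start, written 5′ to 3′ on the strand of the gene. Capitals mark matches on either strand to CCAAT (the CCAAT box), GGGCGG (the GC box) or CAGACA (an element read by SMAD proteins). Col18a1 has windows at a pair of starts, and its probe set does not tell which start was used. The first window lies at chr10:77166481-77166780, minus strand, and the second at chr10:77113656-77113955, minus strand. The Col1a2 window lies at chr6:4505368-4505667, plus strand. The windows of Col4a1 and Col4a2 lie on opposite strands and share 78 bases at chr8:11312777-11312854, shown on the plus strand.
Col18a1 window 1: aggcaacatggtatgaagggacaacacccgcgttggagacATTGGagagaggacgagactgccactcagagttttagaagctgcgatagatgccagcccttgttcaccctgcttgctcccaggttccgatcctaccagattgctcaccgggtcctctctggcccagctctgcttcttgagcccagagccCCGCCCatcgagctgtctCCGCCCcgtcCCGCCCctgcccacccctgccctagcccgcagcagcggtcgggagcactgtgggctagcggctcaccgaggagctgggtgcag
Col18a1 window 2: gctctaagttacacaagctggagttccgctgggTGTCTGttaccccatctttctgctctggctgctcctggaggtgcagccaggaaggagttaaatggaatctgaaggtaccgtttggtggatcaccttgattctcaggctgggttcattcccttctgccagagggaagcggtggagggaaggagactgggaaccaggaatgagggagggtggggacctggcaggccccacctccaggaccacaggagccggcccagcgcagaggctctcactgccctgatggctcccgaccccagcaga
Col1a2 window 1: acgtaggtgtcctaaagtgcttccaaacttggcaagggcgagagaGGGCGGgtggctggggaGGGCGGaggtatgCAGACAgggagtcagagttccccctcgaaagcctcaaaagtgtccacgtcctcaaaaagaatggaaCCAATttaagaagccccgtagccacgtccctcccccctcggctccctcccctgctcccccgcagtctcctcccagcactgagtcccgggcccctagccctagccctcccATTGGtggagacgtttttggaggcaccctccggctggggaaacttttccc
Col4a1 and Col4a2 shared stretch: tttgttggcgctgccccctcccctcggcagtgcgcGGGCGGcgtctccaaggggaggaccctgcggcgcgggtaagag

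The first Col18a1 window held 3 GC boxes, at positions 190, 208 and 218 counted from 1 at its 5′ end, and a CCAAT box at position 41. The second held none of these and a CAGACA match at position 34. In the Col1a2 window the CCAAT matches were at positions 142 and 251, the GC boxes at 46 and 63 and the CAGACA match at 76. The stretch shared by Col4a1 and Col4a2 held 1 GC box, at position 36, which is 7 bases after the Col4a2 start. The whole windows, not shown, each held 1 CCAAT box, with 1 GC box for Col4a1 and 3 for Col4a2. Across the family, 34 of 43 genes had 37 windows, and Col1a1 and Col12a1 were among the genes without one. GC boxes were in 62.2% of these windows against 35.7% of all 32851 windows of the same length, beside a median GC content of 60.0% against 52.7%. CCAAT was in 32.4% against 37.4%, CAGACA in 24.3% against 6913 of all 32851, the TATA box TATAAA in 10.8% against 13.6%, and the AP-1 motif TGANTCA in 2.70% against 7.81%. The p53 half-site, the motif that p53 family proteins share, was in 3 of 37 windows (Col6a6, Col9a2 and Col20a1), 8.11% against 8.36% of all windows. Motifs were searched on both strands. A GC-rich motif is found more often in GC-rich windows, and these shares are a description of letters, not of binding.

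The largest differences among the collagens lay between the viruses. With p63, 3 of 30 were higher in mock-treated cells (Col9a3, Col12a1 and Col18a1) and 2 in etoposide-treated cells (Col12a1 and Col18a1). The same size was reached upward by 2.42% of all genes kept in mock-treated cells and by 1.38% in etoposide-treated cells. No collagen was lower by 2-fold with p63 in either, where 3.76% and 0.514% of genes were. Col12a1 and Col18a1 were higher by at least 1 in both pairs, as were 0.925% of genes, and 0 of 30 collagens and 0.486% of genes were lower in both. With etoposide, 0 of 30 collagens reached 2-fold in any direction. The shares of all genes there were 3.52% higher and 2.12% lower in GFP cells, 6.28% higher and 1.33% lower in p63 cells, and 2.57% higher and 0.608% lower in both pairs.

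**Figure D1:**
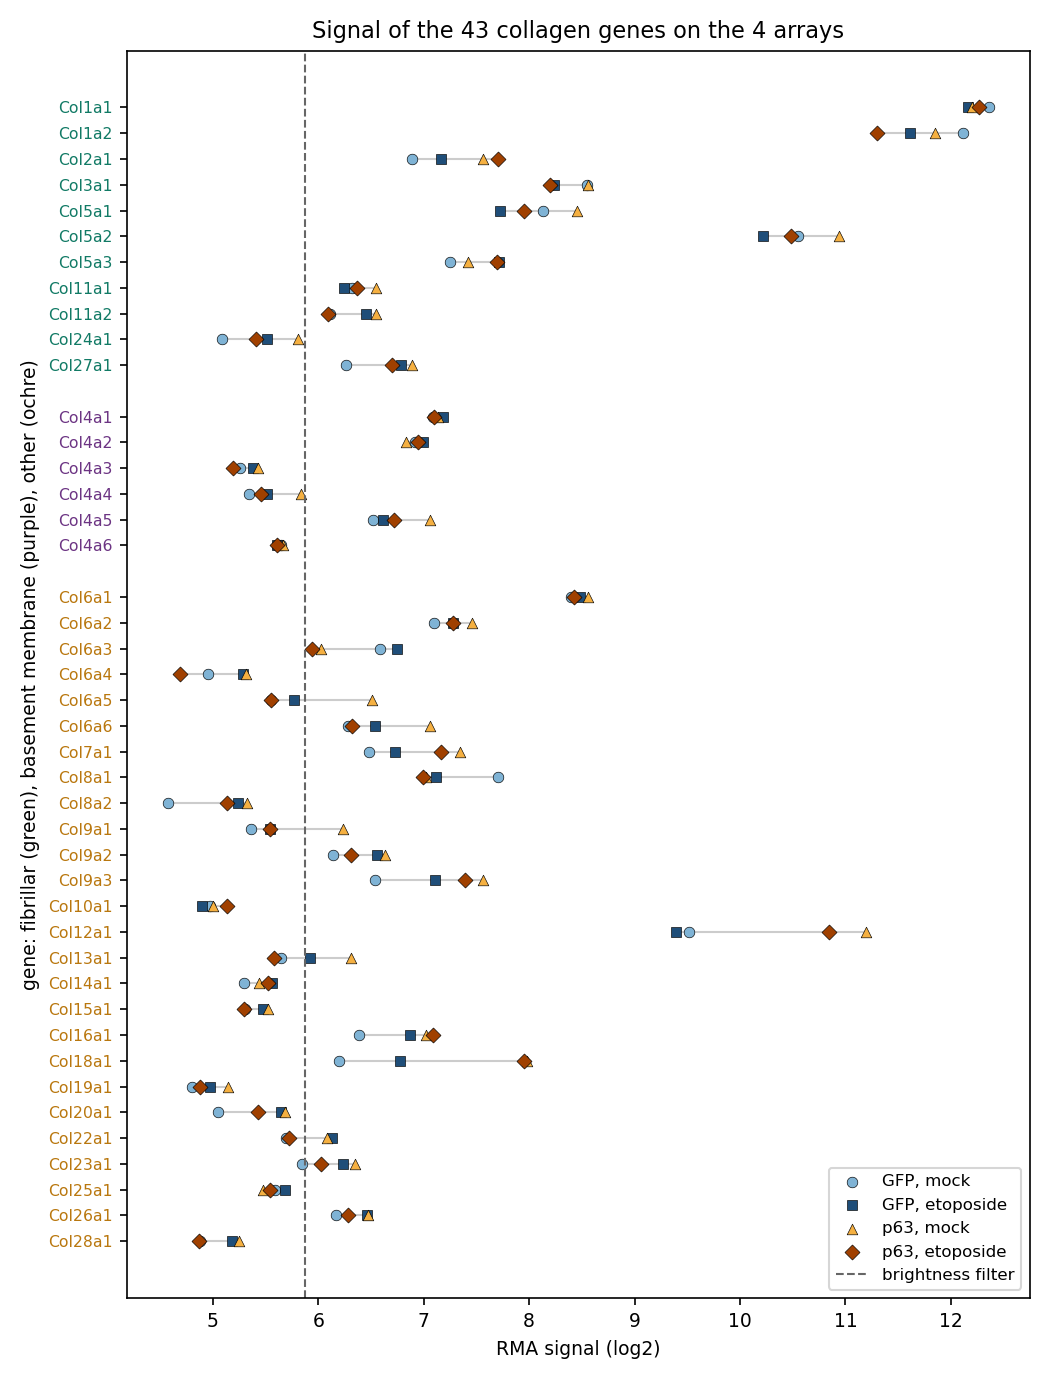
Log2 RMA signal of the 43 collagen genes on each of the 4 arrays, 1 point per array, with the brightness filter of 5.87 as a dashed line. The points of Col12a1 and Col18a1 separate by virus, while Col4a6 spans 0.06 across all arrays.

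Col12a1 encodes the chain of type XII collagen, which sits on the surface of type I fibrils. It read 9.51 and 9.40 in mock-treated and etoposide-treated GFP cells, and 11.19 and 10.84 in the corresponding p63 cells. Both p63 arrays were far above both GFP arrays. The p63 difference was 1.68 (3.20-fold) in mock-treated and 1.45 (2.72-fold) in etoposide-treated cells, and the mean of these ranked 51 of 10698 genes. The etoposide differences were smaller, -0.12 with the GFP virus and -0.35 with p63.

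Col18a1 encodes type XVIII collagen, a heparan sulfate proteoglycan of basement membranes whose C-terminal fragment is endostatin. It read 6.19 and 6.77 in mock-treated and etoposide-treated GFP cells, and 7.98 and 7.95 in the p63 cells. Both p63 arrays were again above both GFP arrays, and the readings of the 2 p63 arrays were nearly equal. The p63 difference was 1.79 (3.45-fold) in mock-treated and 1.17 (2.26-fold) in etoposide-treated cells, with a mean ranking 64 of 10698. In GFP cells the gene read 0.58 higher (1.49-fold) with etoposide, and in p63 cells the difference was -0.03.

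Col9a3, a chain of the cartilage collagen IX, passed the 2-fold line on 1 pair only. Its readings were 6.54, 7.11, 7.56 and 7.39 in GFP cells without and with etoposide and in p63 cells without and with it, the order used for every set of 4 readings from here on. Both p63 arrays were higher than both GFP arrays, but the etoposide-treated pair lay close together. The p63 difference was 1.02 (2.03-fold) without etoposide and 0.28 with it.

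Among fibrillar collagens, most of the brightest members read lower with etoposide, by less than 2-fold. Col1a1 and Col1a2 encode the chains of type I collagen, the main fibril of skin, tendon and bone. Col1a2 read 12.12, 11.62, 11.85 and 11.30, so that both etoposide arrays were below both mock arrays. The etoposide difference was -0.50 (1.41-fold lower) with the GFP virus and -0.55 (1.46-fold lower) with p63. Col1a1 read 12.36, 12.16, 12.20 and 12.27, a range of 0.20 in which the treatments overlap. Col1a1 differed with etoposide by -0.20 under GFP and 0.07 under p63, and the latter turned to -0.13 when the arrays were centred on their medians. The partner chains therefore differed from each other in the etoposide difference by 0.30 under GFP and 0.62 under p63.

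Type V collagen initiates fibrils and limits their width. Col5a2, the third of the brightest fibrillar members, read 10.55, 10.22, 10.94 and 10.48, with etoposide differences of -0.33 and -0.46 in GFP and p63 cells. Its partner chain Col5a1 read 8.13, 7.72, 8.46 and 7.95, with differences of -0.41 and -0.51. In Col5a1 and Col5a2, though not in the further type V chain Col5a3, each etoposide array was below each mock array. The partners Col5a1 and Col5a2 lay within 0.08 of each other in all 4 comparisons. Col3a1, which encodes type III collagen of elastic tissues and adjoins Col5a2 on the chromosome, read 8.55, 8.23, 8.56 and 8.19, and was lower with etoposide by the same order, -0.31 and -0.36.

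Counted by array order, a count chosen after the values were seen, both etoposide arrays were below both mock arrays in 4 of 30 collagens, 13.3%, against 22.1% of all genes kept. All 4 were fibrillar (Col1a2, Col3a1, Col5a1 and Col5a2), out of 10 fibrillar, 3 type IV and 17 other collagens that passed. With the arrays centred on their medians the count was 6, with Col1a1 and the non-fibrillar Col8a1 added. With cyclic loess normalisation, also chosen after the values were seen, Col5a2 left and the other 3 stayed, and with no filter the dim Col4a6 joined. Both etoposide arrays were above both mock arrays in 2 of 30, 6.67%, against 23.8% of all genes: Col4a2 and Col5a3, a further type V chain that read 7.25, 7.71, 7.42 and 7.70.

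The dimmer fibrillar collagens followed other orders. Col2a1, the fibril collagen of cartilage, read 6.89, 7.16, 7.56 and 7.70, with both p63 arrays above both GFP arrays and p63 differences of 0.68 and 0.54. Col11a1, a chain of the cartilage collagen XI, had the same order within a narrower range, at 6.32, 6.24, 6.54 and 6.36. Its partner Col11a2 read 6.11, 6.46, 6.55 and 6.09, high in GFP cells with etoposide and in p63 cells without it. Col27a1, a minor fibrillar collagen, read 6.27, 6.78, 6.89 and 6.70, and was low in mock-treated GFP cells alone. Col24a1 was below the filter on every array, at 5.09 to 5.81. Over the 10 fibrillar members that passed, the median difference was -0.14 and -0.28 with etoposide in GFP and p63 cells, and 0.27 and 0.04 with p63 in mock-treated and etoposide-treated cells. Over all genes kept these medians were -0.08, 0.10, -0.14 and 0.02.

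Of the type IV genes, Col4a1 and Col4a2 varied little and Col4a5 more. Col4a1 and Col4a2, whose chains form the common network of nearly all basement membranes, read 7.09, 7.18, 7.14 and 7.09 for the former and 6.92, 6.99, 6.83 and 6.94 for the latter. No pair of arrays separated either gene by more than 0.16, and the partners differed by at most 0.16 in any of the 4 comparisons. The sign of such small differences is not stable: those of Col4a2 for etoposide in p63 cells (0.12) and for p63 in mock-treated cells (-0.09) were -0.08 and 0.12 after centring. Col4a5, an X-linked chain of kidney and epithelial basement membranes, read 6.52, 6.61, 7.06 and 6.72. Its p63 arrays were both above its GFP arrays, by 0.54 without and 0.10 with etoposide. Col4a3, Col4a4 and Col4a6 were below the filter on every array, at 5.20 to 5.43, 5.34 to 5.84 and 5.61 to 5.67. The class medians of the 3 genes that passed were 0.09, -0.04, 0.05 and -0.05 in the order of comparisons given for the fibrillar class.

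**Figure D2:**
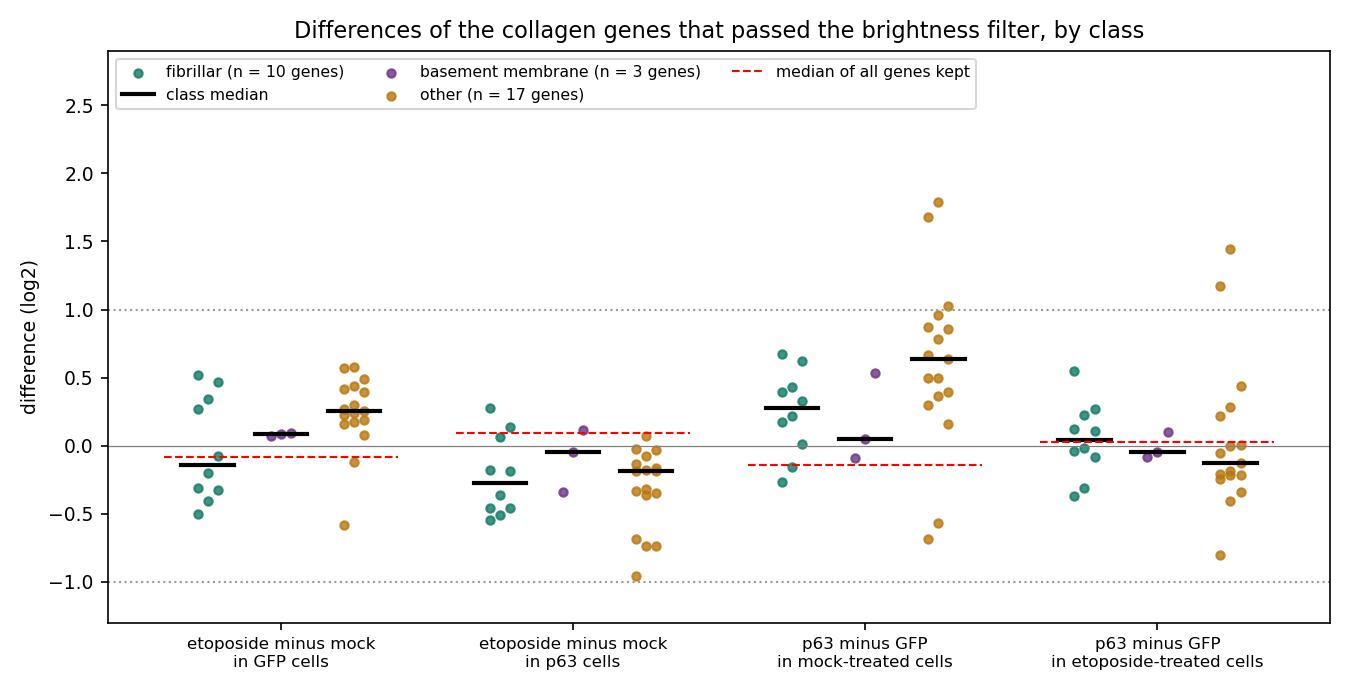
Log2 difference of each collagen gene that passed the filter in the 4 comparisons, by class; the black line is the class median and the red dashed line the median of all genes kept. In mock-treated cells the median p63 difference was 0.27 for fibrillar, 0.05 for type IV and 0.64 for other collagens, against -0.14 for all genes kept.

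Type VI collagen, the beaded filament that surrounds fibroblasts and muscle fibres, had 5 of 6 genes above the filter on some array. Col6a1 read 8.40, 8.48, 8.56 and 8.43, and Col6a2, its neighbour chain, 7.10, 7.27, 7.46 and 7.28. Col6a1 spanned 0.16 over the arrays. Col6a2 spanned 0.36, with a p63 difference of 0.36 without etoposide, and that with etoposide (0.00) was -0.08 after centring. Col6a3, the remaining chain of the classical heterotrimer, went the other way. It read 6.59, 6.75, 6.02 and 5.94, both p63 arrays being below both GFP arrays, by -0.57 without and -0.80 with etoposide, and its mean p63 difference of -0.69 ranked 10413 of 10698. The alternative chains Col6a5 and Col6a6 were highest in mock-treated p63 cells, at 5.55, 5.77, 6.51 and 5.55 for Col6a5 and 6.28, 6.53, 7.06 and 6.32 for Col6a6. Col6a5 passed the filter through that single array, and its other, dimmer probe set gave a p63 difference of -0.18 in mock-treated cells where the chosen one gave 0.96, so that this gene's difference rests on 1 probe set and 1 array. For Col6a6 the other probe set, also dim, gave 0.11 where the chosen one gave 0.78. Col6a4 was dim throughout, at 4.68 to 5.32.

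Col7a1 encodes the anchoring fibrils that fasten the epidermal basement membrane to the dermis. It read 6.48, 6.72, 7.34 and 7.17, both p63 arrays being above both GFP arrays. The p63 difference was 0.86 and 0.44, short of 2-fold in both. Col8a1, a short-chain network collagen of vessels and the cornea, read 7.70, 7.12, 7.02 and 6.99. It stood apart by being high in mock-treated GFP cells alone, with p63 differences of -0.68 and -0.13. Its partner Col8a2 was dim on every array, at 4.58 to 5.32.

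Of 9 fibril-associated collagens, 6 passed. The p63 difference in mock-treated cells was above 0 in all 9, as in 52.7% of all genes, from 0.15 to 1.68 with a median of 0.64. After etoposide it ran from -0.41 to 1.45, with 3 above and 6 below 0. Besides Col12a1 and Col9a3, Col16a1 kept both p63 arrays above both GFP arrays, at 6.38, 6.87, 7.02 and 7.09. Col9a1, a further chain of collagen IX, passed only through the mock-treated p63 array, at 5.36, 5.54, 6.23 and 5.54. Col9a2, the remaining chain of that collagen, read 6.14, 6.55, 6.64 and 6.31, and Col22a1, found at tissue junctions such as that of muscle and tendon, 5.69, 6.13, 6.09 and 5.72. Both were higher in GFP cells with etoposide and in p63 cells without it than on the other arrays. The transmembrane collagens Col13a1 and Col23a1 read 5.65, 5.92, 6.31 and 5.58, and 5.85, 6.24, 6.35 and 6.03, each highest in mock-treated p63 cells. Col26a1 spanned 6.17 to 6.47. The remaining members dim on every array were Col10a1, Col14a1, Col15a1, Col19a1, Col20a1, Col25a1 and Col28a1.

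Both p63 arrays were above both GFP arrays in 9 of 30 collagens, 30.0%, against 12.9% of all genes kept: Col2a1, Col4a5, Col6a2, Col7a1, Col9a3, Col11a1, Col12a1, Col16a1 and Col18a1. They were 2 of 10 fibrillar, 1 of 3 type IV and 6 of 17 other collagens. Both p63 arrays were below both GFP arrays in Col6a3 and Col8a1, 6.67%, against 21.2% of all genes. Col6a2 left the former group with centring and with cyclic loess, and with cyclic loess Col5a2 and Col9a1 joined it. These counts too were chosen after the values were seen.

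**Figure D3:**
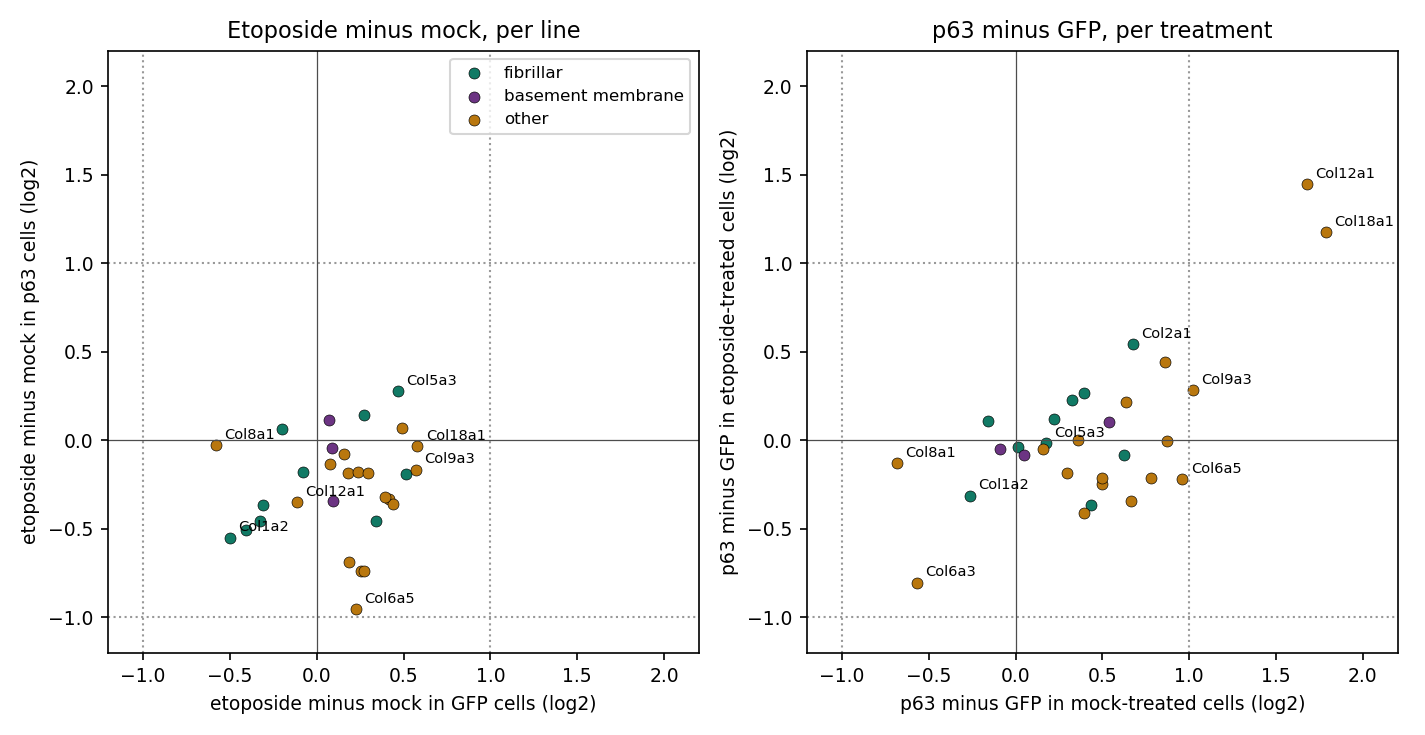
Log2 differences of the 30 collagen genes that passed the filter; left, etoposide minus mock in GFP cells against p63 cells; right, p63 minus GFP in mock-treated against etoposide-treated cells, with dotted lines at differences of 1. On the right Col12a1 and Col18a1 lie beyond 1 on both axes, and on the left no gene reaches 1 on either.

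Most collagens shared 1 feature, a high reading in mock-treated p63 cells. That array gave the highest of the 4 readings for 30 of 43 collagens, 69.8%, and for 30.7% of all 19938 genes. Among genes that passed the filter the shares were 20 of 30 collagens, 66.7%, and 19.4% of 10698 genes. Col6a5 and Col9a1 are among these 20 and passed through that array alone, so the filter fixed where they were highest. Over all 43, that array was highest for 7 of 11 fibrillar, 4 of 6 type IV and 19 of 26 other collagens. The array of mock-treated GFP cells gave the lowest reading for 24 of 43, a count whose share over all genes was not computed. In both comparisons that use the mock-treated p63 array the collagens accordingly lay to 1 side: over all 43 collagens, the p63 difference in mock-treated cells was above 0 in 37, 86.0%, against 52.7% of all 19938 genes, and the etoposide difference in p63 cells was below 0 in 35, 81.4%, against 53.6%. These comparisons share that array and are not independent of each other. In the comparisons without it, the etoposide difference in GFP cells was above 0 in 33 of 43, 76.7% against 54.8% of all genes, and the p63 difference after etoposide was below 0 in 29 of 43, 67.4% against 55.5%. Among genes that passed the filter, the p63 difference in mock-treated cells was above 0 in 25 of 30 collagens and 36.1% of 10698 genes, and the etoposide difference in p63 cells was below 0 in 25 of 30 collagens and 40.4% of genes. Col6a5 and Col9a1 passed only through the mock-treated p63 array, and without them these counts were 23 and 23 of 28. In GFP cells, etoposide gave 22 of 30 above 0, against 41.2% of genes, and with p63 after etoposide 12 of 30 were above 0, against 54.4%. For the 17 other collagens the medians were 0.25, -0.19, 0.64 and -0.13 for etoposide in GFP and p63 cells and for p63 in mock-treated and etoposide-treated cells, and the 0.64 was 0.50 with the filter set on the mean of the arrays. Over all 43 collagens, dim ones included, the medians were 0.19, -0.23, 0.37 and -0.08.

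The etoposide difference was lower in p63 cells than in GFP cells for 39 of 43 collagens, 90.7%, against 51.8% of all 19938 genes, with a median difference of differences of -0.42 against -0.02. Among those that passed the filter it was lower for 27 of 30, against 30.7% of 10698 genes, with a median of -0.39 against 0.20, and -0.30 over the 28 left without Col6a5 and Col9a1. This quantity too moved with brightness: below the filter its median over all genes was -0.26, and -0.62 over 16 collagens. The same quantity is the p63 difference with etoposide minus that without. It reached -1.18 in Col6a5 and -1.01 in Col13a1, both near the filter, and was 0.56 in Col8a1 and 0.27 in Col1a1, which with Col4a2 (0.04) were the 3 above 0 among those that passed. For the bright type I, III and V genes apart from Col1a1 it was small: -0.05 in Col1a2, -0.05 in Col3a1, -0.10 in Col5a1 and -0.13 in Col5a2.

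Brightness moved with these differences. Over all genes with a mean signal below the filter the median p63 difference in mock-treated cells was 0.16, and over those at or above the 75th percentile, 7.82, it was -0.19. Collagens at the same brightness read higher: their medians were 0.37 for 16 genes below the filter, 0.47 for 20 genes between the levels, where all genes gave -0.13, and 0.16 for the 7 brightest. For etoposide in p63 cells, the collagen medians were -0.26, -0.18 and -0.36 from dim to bright, and those of all genes -0.13, 0.09 and 0.13. In GFP cells, etoposide gave collagen medians of 0.21, 0.28 and -0.31 against 0.14, -0.07 and -0.12. The spread of signals over all probe sets was smallest on the mock-treated p63 array, with an SD of 2.28 against 2.37 to 2.39 on the other arrays. After cyclic loess, the median p63 differences in mock-treated cells were 0.38 for fibrillar, 0.16 for type IV and 0.59 for other collagens, in place of 0.27, 0.05 and 0.64. The part of brightness in these differences was not tested further.

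**Figure D4:**
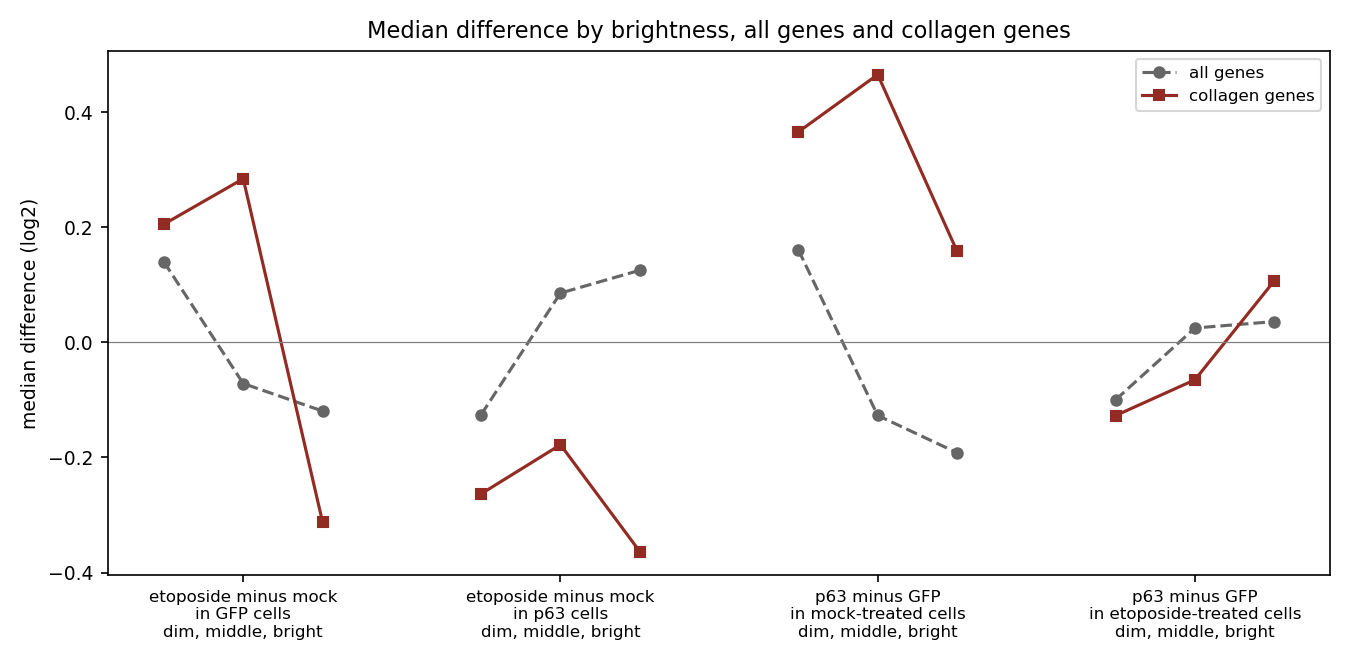
Median log2 difference by mean signal (below the filter of 5.87, from there to 7.82, and above) for all genes and for collagens in the 4 comparisons. In mock-treated cells the collagen medians of the p63 difference, 0.37, 0.47 and 0.16, lie above those of all genes, 0.16, -0.13 and -0.19.

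The genes that make, bind, cut and sense collagen were read from 8 lists, and called where a member differed by at least 1 the same way in both pairs, as 0.925% of genes did upward and 0.486% downward for p63, and 2.57% and 0.608% for etoposide. Among enzymes and chaperones that modify and fold the chains, 19 of 21 listed genes passed. Plod2, a lysyl hydroxylase whose product shapes the type of cross-link, was higher with etoposide in both pairs, reading 9.58, 10.76, 9.57 and 10.67, high in both etoposide arrays, with differences of 1.18 and 1.10. It was the single call of the list for etoposide, and the list had none for p63, where Sec23a, a coat subunit for vesicles that export procollagen, differed by 1.13 and 0.62 and the prolyl isomerase Fkbp14 by 0.75 and 0.91. Serpinh1, the collagen-specific chaperone, read 8.79, 8.64, 9.06 and 8.74, with etoposide differences of -0.15 and -0.32. Both of its etoposide arrays were below both mock arrays, an order found in 22.1% of all genes kept. The median p63 difference of the list was 0.14 and 0.25.

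Of 8 genes that remove propeptides, 6 passed. Tll1, a protease of the procollagen C-proteinase family, was higher with p63 in both pairs, reading 7.95, 7.62, 8.95 and 9.09 with differences of 1.00 and 1.46. For etoposide the list had no call, and its largest mean differences were those of Bmp1, the main C-proteinase, at 0.33 and 0.70, and of its enhancer Pcolce2 at 0.29 and 0.48. None of the 5 cross-linking enzymes that passed was called in both pairs. Lox, the lysyl oxidase that starts cross-linking, read 10.78, 10.53, 10.33 and 10.39, Loxl4 differed by 0.51 and 1.41 with etoposide in GFP and p63 cells, and Tgm2, a transglutaminase, by 0.84 and 1.15 with p63.

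Among 14 fibril-binding proteins, 9 passed, and the 2 called were both near the filter. Aspn, a small proteoglycan of the decorin family, read 5.71, 3.58, 6.43 and 4.27, with etoposide differences of -2.13 and -2.16, but only 1 of its readings was above the filter. Fmod, which binds type I fibrils, read 4.50, 4.68, 5.96 and 6.08, so its p63 differences of 1.47 and 1.39 shrank to 0.09 and 0.21 when dim readings were raised to the filter level. Of 12 basement membrane partners, 10 passed, and the 2 called for p63 lay in opposite directions. Lama5, a laminin chain of epithelial basement membranes, was higher with p63, at 6.91, 7.31, 8.04 and 8.68, and Nid2, which links laminin to type IV collagen, was lower, at 8.22, 8.88, 7.21 and 7.76. The p63 differences were 1.13 and 1.36 in Lama5 and -1.01 and -1.12 in Nid2, and in both genes the p63 arrays lay wholly to 1 side of the GFP arrays.

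Collagen receptors had 8 of 10 genes above the filter on some array. Itga2, the collagen-binding integrin subunit of epithelia and platelets, read 4.82, 7.15, 5.48 and 6.77, higher with etoposide by 2.33 and 1.29, or 1.28 and 0.90 with dim readings raised to the filter. Itga1, its counterpart in mesenchymal cells, read 5.47, 5.25, 6.71 and 6.37, higher with p63 by 1.24 and 1.12, or by 0.84 and 0.50 when dim readings were raised. Of 12 degrading enzymes 4 passed, and none was called in both pairs. Mmp16, a membrane-bound matrix protease, differed by -1.44 and -0.43 with etoposide, and Mmp2, the secreted gelatinase, by 0.84 and 0.74 with p63. With p63, Mmp16 went the other way, by -1.29 and -0.28. The TGF-beta pathway, the best known inducer of fibrillar collagen genes, had 16 of 18 genes above the filter and no call in both pairs. Its target Ccn2 read 11.34, 11.49, 10.08 and 12.10, so that it differed with etoposide by 0.15 under GFP and 2.02 under p63. Ltbp1, which holds latent TGF-beta in the matrix, differed by -1.56 and -0.66 with p63, and Tgfbr1 by 0.88 and 0.80. The median etoposide difference of the list was 0.13 under GFP and 0.53 under p63, against -0.08 and 0.10 over all genes kept.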

How the data were processed

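Per the labels' protocols, Trizol-extracted RNA went through a NuGEN whole-transcriptome amplification, was labelled with biotin and was measured on Affymetrix Mouse Gene ST arrays. The authors deposited log2 signals; the submitters' processing notes name RMA and Affymetrix Expression Console, whose version the sources used here do not give. The log base was read from the range of the values, 1.27 to 14.4. RMA makes the probe intensity distributions of the arrays equal, so a shift shared by most genes is largely removed before deposit. Of 35512 probe sets, 21789 had 1 symbol in the platform annotation of 2016, 1621 had several and 12102 were not listed; 21698 matched RefSeq GRCm38.p6, the assembly of the promoter windows too. Samples were grouped by virus and treatment, 1 array each; the design text names GFP again for the last sample, whose own labels say p63 and etoposide.

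Genes were kept when their highest array reached the 50th percentile, which left 10698 of 19938 genes, and differences of log2 signal were counted from 1 with Python 3.11.15, numpy 2.4.6 and pandas 2.3.3 (cyclic loess: limma 3.58.1 in R 4.3.3). The counting was tested on simulated data. All 4 readings were to be given for collagens that differed by at least 1 in any comparison and for the 3 brightest others of each class; readings of further collagens are given beyond that rule, chosen after their values were seen. From each list, members called in both pairs were named, and up to 2 of the largest otherwise; Serpinh1 and Lox were added after their values were seen. The members and lists were chosen with earlier results of these data known. Alternatives were other filters, the median over probe sets of 1 gene, centring, raised dim readings, a 1.5-fold threshold, a wider basement membrane class and cyclic loess. Protein sequences were not used here.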

Additional observations from a re-analysis of the deposited data

Results flagged for a closer look

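Etoposide and p63 differences that ran in opposite directions, by at least 0.3 in each pair, were found in 5 collagens. The share of all genes that met this rule was not computed. For etoposide, opposite signs of any size were found in 19 of 30 collagens and 3971 of 10698 genes. For p63 they were found in 15 of 30 collagens and 4376 of 10698 genes. With etoposide, Col9a2 gave 0.41 in GFP cells and -0.33 in p63 cells, a difference of -0.74 between the pairs. Col11a2 gave 0.34 and -0.46, a difference of -0.80. Col22a1 gave 0.44 and -0.36, a difference of -0.80, and Col23a1 gave 0.39 and -0.32, a difference of -0.71. With p63, Col11a2 gave 0.43 in mock-treated and -0.37 in the etoposide-treated pair, which is the same -0.80. Col13a1 gave 0.67 and -0.34, a difference of -1.01, and Col22a1 gave 0.39 and -0.41, a difference of -0.80. With 1 array per group none of these differences between pairs was tested. Col13a1, Col22a1 and Col23a1 had at least 1 reading under the filter. With dim readings raised to the filter, Col22a1 gave 0.26 and -0.22 with etoposide and 0.22 and -0.26 with p63. Col13a1 gave 0.44 and -0.05 with p63, so neither gene then met the rule. Col23a1 still did with etoposide, at 0.37 and -0.32.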

How the results depend on the processing

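No paired analysis was possible because each group holds 1 array, so no replicate numbers pair arrays across groups; an additive fit of virus and treatment, whose residual would be the difference of differences and not replicate error, was not run. Cyclic loess and the array-order counts were chosen after seeing the data. Over 9 alternatives, 168 values moved by at most 0.1 (medians) or by up to 1.5 times (counts), among them the 4 collagens with both etoposide arrays below both mock arrays, which were 6 with centring. Col12a1 and Col18a1 were higher with p63 in both pairs under each, in mock-treated and etoposide-treated cells by 1.68 to 1.89 and 1.36 to 1.45 for Col12a1, and by at least 1.79 and 1.09 for Col18a1. The others moved as follows, as medians unless named as counts. With no filter, type IV with etoposide in p63 cells gave -0.14 and other collagens with p63 in mock-treated cells 0.44; the latter was 0.50 with the filter on the mean, 0.50 with the median of probe sets and 0.48 with dim readings raised. The 75th percentile left 8 collagens and no type IV. Fibrillar medians were -0.33 and -0.46 with etoposide in GFP and p63 cells and 0.012 with p63 in mock-treated cells. The other class was left with Col6a1, Col12a1 and Col18a1 only, so each of its medians was the value of a single gene. They were 0.078 with etoposide in GFP cells and 1.68 and 1.17 with p63 in mock-treated and etoposide-treated cells. The count of genes with both p63 arrays above both GFP arrays was 2. Centring, which moved the all-gene medians from -0.14 to 0.07 for p63 in mock-treated cells and from 0.10 to -0.10 for etoposide in p63 cells, gave 1 lower collagen with etoposide in p63 cells (Col6a5) and 6 higher with p63 in mock-treated cells, with medians of -0.47, -0.24 and -0.38 for fibrillar, type IV and other collagens in the former and 0.49, 0.26 and 0.85 in the latter. At 1.5-fold, the counts were 4 lower with etoposide in p63 cells, 11 higher and 1 lower with p63 in mock-treated cells, and 1 lower with p63 after etoposide. The shares of all genes that reached 1.5-fold were not computed. With types VII, XV and XVIII in the basement membrane class, its medians with p63 were 0.54 and 0.10 in mock-treated and etoposide-treated cells, and other collagens gave 0.50 with p63 in mock-treated cells and -0.32 with etoposide in p63 cells. Cyclic loess gave 0.38 for fibrillar and 0.16 for type IV collagens with p63 in mock-treated cells. Where a filter or class changed, the genes counted changed by construction; otherwise the cause was not tested. Dim readings limit what can be said of the 13 collagens below the filter.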
